A study of Mus musculus with 27 samples.

Results

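The 41 genes described here are ATF4 and genes named with it in the amino acid response: stress effectors, enzymes of serine, one-carbon, proline and cysteine metabolism, amino acid transporters, and 12 cytosolic tRNA synthetases. They were chosen by symbol, and each was found once in all 3 deposited count tables, which held 46078, 46078 and 22906 genes. RNA sequencing had been done on 27 mouse libraries in 9 groups of 3. Thymus came from C57BL/6 mice that had received bone marrow transplants, in 4 groups: an empty vector, TAL1 overexpression (labelled TAL1), AKT(E17K) alone, or AKT(E17K) together with constitutive TAL1. TAL1 is a transcription factor switched on in T cell acute lymphoblastic leukaemia, and AKT(E17K) is an activated form of the kinase AKT1. The other 5 groups were ProT cells, a cell line whose TAL1, by its labels, was induced through CreER and LoxP with 4OH tamoxifen, taken at 0, 6, 12, 18 and 24 h. The thymus of a transplanted mouse can hold host cells beside donor cells, and the labels do not give the cell type that expressed each construct. Whether the 3 ProT libraries of a time were separate cultures is not stated either, so ProT p-values cover the spread among libraries alone, and that spread may be technical.

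ATF4 is a transcription factor whose protein is made when the initiation factor eIF2 is phosphorylated, by kinases that sense amino acid shortage, unfolded protein, haem shortage or double-stranded RNA. It binds, often with C/EBP partners, to a composite C/EBP-ATF element in the promoters of genes that make and import amino acids and charge tRNAs. The same genes are also known as outputs of mTORC1 signalling and of MYC in growing cells, and T cells draw on serine and one-carbon metabolism for nucleotide synthesis when they divide. Most control of ATF4 lies in translation, which messenger RNA counts do not show.

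The libraries held between 2073752 and 11302098 counts in genes, and the AKT(E17K) table was the shallowest. Thymocyte markers were plentiful in the mice, with all 15 detected in every mouse group and Cd3e at 272 to 304 CPM, counts relative to the scaled total of a library, in empty-vector thymus. In ProT cells Lck stood at 231 to 245 CPM in the 0 h libraries, while Cd4, Cd8a and Cd8b1 were all without a count in the first and last groups, 0 h and 24 h. Mouse Tal1 had no counts in any of the 6 mice labelled TAL1 or AKT(E17K) with TAL1, so it does not check those labels. In ProT cells Tal1 was already at 2601 to 2965 CPM of all counts in genes in the 0 h libraries. It stood at 2839 to 3314 in the 6 h libraries and 2004 to 2169 in the 24 h libraries. From 0 h to 24 h Tal1 fell by 0.57 ± 0.12 on the log2 scale (SE, edgeR adjusted p = 0.00172), where the labels describe induction. Whether these counts include the induced construct is not known, so they do not check that label either. Groups are therefore named by their labels throughout. The first ProT library labelled 6 h stood apart: its root mean square log2 distance over genes was 0.491 to the other 6 h libraries and 0.448 to the 24 h libraries, against 0.452 to 0.457 and 0.577 to 0.595 for the other 6 h libraries. The first 12 h library was also nearer to the 24 h libraries (0.376) than to the other 12 h libraries (0.445). The second 12 h library stood at 0.423 and 0.422 in the same order, and the third at 0.492 and 0.448. The third 0 h library was likewise nearer to the 6 h libraries (0.416) than to its own group (0.452). Without the first 12 h library the median member difference between 12 h and 18 h moved from -0.06 to 0.01, and the counts of members called changed by less than 1.5 times. Without the first 18 h library that median was -0.13.

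The composite C/EBP-ATF element was searched for as TGATGNAA or its reverse complement TTNCATCA, on both strands, from 250 bases before to 50 bases after each RefSeq start site in GRCm38.p6. A promoter window was matched for 32 of the 41 members, and 12 of these (37.5%) held a match, against 4.51% of 27025 genes with a window. Because the members were chosen as ATF4-related genes, this share describes the list and supports nothing about the samples. Aars, whose RNA also rose in ProT cells, held matches that are not shown. The sites shown are from other members whose RNA rose in ProT cells, with Chac1 and Slc7a11 for comparison. Each is given 5′ to 3′ on the strand of its gene, and capitals mark the motif.
Trib3: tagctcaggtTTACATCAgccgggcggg
Asns: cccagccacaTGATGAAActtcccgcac
Slc1a4: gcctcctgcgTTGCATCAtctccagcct
Iars: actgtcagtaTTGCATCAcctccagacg
Chac1: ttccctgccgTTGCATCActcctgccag
Slc7a11, first: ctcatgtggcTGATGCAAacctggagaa
Slc7a11, second: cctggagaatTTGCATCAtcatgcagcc

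The Trib3 site lay at chr2:152344029-152344056 on the minus strand, its motif 15 to 22 bases after the start site, and the Asns site at chr6:7693215-7693242 on the minus strand, its motif 23 to 16 bases before it. The Slc1a4 site, at chr11:20332700-20332727 on the minus strand, spanned the start site itself. Iars held its match on the plus strand at chr13:49682127-49682154. The Chac1 site was farthest upstream of those printed from a single match, 193 to 186 bases before the start, at chr2:119351039-119351066 on the plus strand. The Slc7a11 matches, at chr3:50443662-50443689 and chr3:50443643-50443670 on the minus strand, lay close enough for the printed stretches to overlap. By role, a match was found in 3 of 8 factors and stress effectors with a window, 1 of 9 serine and one-carbon enzymes, 1 of 2 proline and cysteine enzymes, 2 of 5 transporters and 5 of 8 member synthetases. No match was found in the windows of 8 other cytosolic synthetase genes, 14 mitochondrial synthetases or 9 unfolded protein response genes. Among other ATF4 target and stress response genes, 6 of 15 held one.

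Atf4 messenger RNA was the most abundant of the 41 per kilobase of exon in 7 of the 9 groups. In ProT cells at 0 h it stood at 69.2 ± 2.0 CPM per kb (SD, n = 3), and the next member, the glycyl-tRNA synthetase gene Gars, at 36.2 ± 2.58. In empty-vector thymus the order differed: Slc38a2, a sodium-coupled transporter of small neutral amino acids, stood at 87.2 ± 1.89 CPM per kb and Atf4 at 84.1 ± 9.40, and these neighbours did not differ beyond their spread. At the other end, Vldlr, Cth and Aldh1l2 were too low to test in ProT cells. The receptor gene Vldlr had 1 count over all 15 ProT libraries, and Cth, which encodes the cystathionine gamma-lyase of cysteine synthesis, had 1 to 5 counts in each group of 3 ProT libraries. In the mice, Chac1, a glutathione-degrading enzyme and a marker of ATF4 activity, had 0 counts in all 6 mice of the empty-vector and TAL1 table, which allows up to 0.207 CPM over the pooled empty-vector libraries and 0.116 over the pooled TAL1 libraries. These limits cover counting error only.

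In ProT cells at 24 h, 13 of 38 tested members were higher than at 0 h (adjusted p below 0.05) and 0 were lower, where 18.7% of all 13610 genes tested were called, 9.43% upward and 9.3% downward. The median member was higher by 0.34 on the log2 scale, against -0.01 over all genes, and 34 of 38 members lay above 0. In 24 members all 3 libraries at 24 h were above all 3 at 0 h, and in 1 they were all below, where the corresponding shares of all genes were 20.4% and 20.1%. At 6 h edgeR called 0 members (0% of all genes), with 1 member and 5.39% of genes at an unadjusted p below 0.05, and 1 member higher without overlap (4.75% of genes, and 4.64% lower). At 12 h it called 5 members higher (12% of genes, 6.33% upward and 5.69% downward). At 18 h it called 2 higher (8.82% of genes, 4.89% upward and 3.92% downward). These comparisons share the 0 h libraries. In all, 14 members were called at 1 or more times and 8 of these at 24 h alone.

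**Figure D1:**
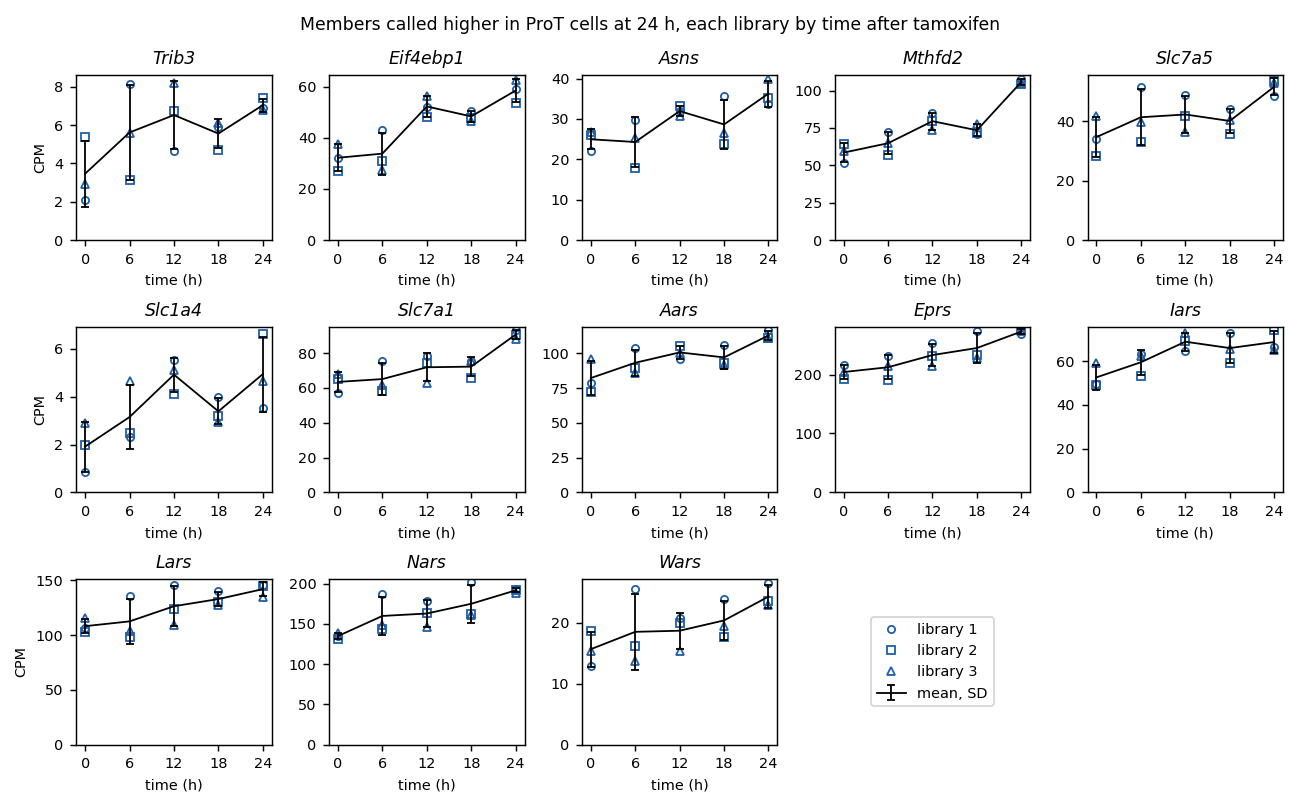
Level in CPM (vertical axis) of the 13 members called higher at 24 h in each ProT library (open symbols) by labelled time in hours (horizontal axis), with the mean and SD of the 3 libraries in black. The 24 h libraries lie above the 0 h libraries in most panels, and the first 6 h library (circle) lies high for Nars, Slc7a5 and Trib3.

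Among factors and stress effectors, Eif4ebp1, which encodes the translation repressor 4E-BP1 and lies at chr8:27260329-27276674 in GRCm38, rose at the 3 later times. Its levels were 32.2, 26.9 and 37.4 CPM in the 0 h libraries, 52.1, 48.2 and 56.3 in the 12 h group, and 59.2, 53.7 and 62.4 at 24 h. The groups at 12, 18 and 24 h did not overlap the group at 0 h. The log2 differences at 12, 18 and 24 h were 0.68 ± 0.15, 0.57 ± 0.15 and 0.85 ± 0.15 (SE), with adjusted p of 0.00277, 0.0158 and 0.000266. The call at 18 h was lost without the second 0 h library or the first 18 h library (adjusted p of 0.118 and 0.0759). Trib3, a pseudokinase that binds ATF4 and AKT, was scarce at 2.09, 5.39 and 2.92 CPM in the 0 h libraries and 6.90, 7.43 and 6.79 at 24 h. All 3 libraries at 24 h were above those at 0 h, and the difference of 0.99 ± 0.35 passed the threshold narrowly (adjusted p = 0.0463). Without a library of 0 h or 24 h the call for Trib3 was lost in 5 of 6 cases, with adjusted p up to 0.17, and it was also lost in DESeq2 (adjusted p = 0.0617) and with the replicate number as a block (adjusted p = 0.0502). Cebpb, a basic leucine zipper partner of ATF4, was called at 12 h, at 6.68, 4.90 and 9.63 CPM against 2.93, 1.70 and 2.53 at 0 h, a log2 difference of 1.56 ± 0.38 (adjusted p = 0.00785). At 24 h it stood at 6.13, 5.06 and 3.40 CPM and was not called (1.06 ± 0.40, adjusted p = 0.0603), and the call at 12 h was lost without the second 0 h library (adjusted p = 0.0567).

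Atf4 itself stood at 165, 158 and 167 CPM in the 0 h libraries and 191, 206 and 218 at 24 h. The groups did not overlap, and the log2 difference of 0.33 ± 0.12 lay just outside the threshold (adjusted p = 0.0501). Chac1 stood at 2.09, 6.52 and 4.09 CPM in the 0 h libraries and 7.21, 9.95 and 6.58 at 24 h, again without overlap and just outside (0.86 ± 0.32, adjusted p = 0.057). Ddit3, which encodes the stress factor CHOP, gave 25.5, 28.6 and 30.2 CPM in the 0 h libraries and 25.3, 31.9 and 36.3 at 24 h, groups that overlapped (0.13 ± 0.17, adjusted p = 0.635). Its exons overlap those of Mars on the other strand, and since the strand setting of the counting is not known, both values are uncertain. Atf5, a relative of Atf4, and Sesn2, an inhibitor of mTORC1, were not called at any time in ProT cells. The exons of Atf5, Cebpb, Psph, Shmt1, Shmt2, Mthfd1, Aldh1l2, Aars, Cars and Yars also overlap those of other genes. Their counts are uncertain too.

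Of the enzymes, Mthfd2 gave the lowest adjusted p of any member. It encodes the mitochondrial enzyme that oxidises methylene-tetrahydrofolate in one-carbon metabolism and lies at chr6:83305691-83325908 on the minus strand. Its levels were 51.9, 64.3 and 59.4 CPM in the 0 h libraries, then 72.1, 57.1 and 65.2 in the 6 h group, 85.2, 79.7 and 73.8 in the 12 h group, 70.8, 71.7 and 77.9 in the 18 h group, and 108, 104 and 105 in the last, 24 h. Every library from 12 h on was above every library at 0 h. The log2 differences from 0 h at 12, 18 and 24 h were 0.44 ± 0.11, 0.32 ± 0.12 and 0.85 ± 0.11, with adjusted p of 0.0124, 0.0797 and 1.56e-05. The call at 12 h was lost without the first 0 h library (adjusted p = 0.0737), and the call at 24 h was kept under every alternative run. Mthfd2 was also the 1 member called between 18 h and 24 h, at 0.52 ± 0.11 (adjusted p = 0.0334), where 0.162% of all genes were called and 0.0147% were called upward. That call was lost when any 1 library of 18 h or 24 h was left out, with adjusted p up to 0.263.

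Asns, which makes asparagine from aspartate and glutamine, stood at 22.2, 26.1 and 26.7 CPM in the 0 h libraries and 33.7, 35.2 and 39.9 at 24 h. The groups did not overlap, and the difference was 0.52 ± 0.17 (adjusted p = 0.0281). The 3 enzymes of serine synthesis, Phgdh, Psat1 and Psph, were not called at 24 h. Phgdh, the first enzyme of the path, gave 41.4, 47.9 and 53.5 CPM in the 0 h libraries and 62.6, 56.4 and 64.3 at 24 h (0.34 ± 0.15, adjusted p = 0.101). Psat1, the second, gave 66.1, 81.3 and 77.5 CPM in the 0 h libraries, 77.1, 57.3 and 56.5 in the 6 h group, and 86.3, 91.5 and 106 at 24 h. For both, the 24 h libraries lay above those at 0 h without overlap, and Psat1 was called only in the test over all times (adjusted p = 0.0217). Shmt2, which takes the one-carbon unit from serine in mitochondria, stood at 66.9, 66.0 and 78.8 CPM in the 0 h libraries and 77.6, 83.9 and 83.4 at 24 h, groups that overlapped (0.20 ± 0.13, adjusted p = 0.297). Its cytosolic counterpart Shmt1 and the folate enzymes Mthfd1 and Mthfd1l were not called at any time, nor were the proline synthesis genes Aldh18a1 and Pycr1. In all, 2 of 9 tested asparagine, serine and one-carbon enzymes and 0 of 2 proline enzymes rose at 24 h.

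Of 7 amino acid transporters, 3 rose at 24 h and 0 fell, and 3 had values below 0. Slc7a1, the carrier of arginine and lysine, stood at 56.9, 65.2 and 68.1 CPM in the 0 h libraries and 93.2, 90.2 and 88.3 at 24 h. These groups were well apart, with a difference of 0.51 ± 0.12 (adjusted p = 0.00426). Slc7a5, the light chain of the carrier of leucine and other large neutral amino acids, stood at 33.9, 28.3 and 41.7 CPM in the 0 h libraries and 48.3, 53.4 and 52.9 at 24 h (0.55 ± 0.16, adjusted p = 0.0138). Slc3a2, the heavy chain shared by that carrier and the cystine carrier, gave 101, 80.5 and 106 CPM in the 0 h libraries and 127, 117.1 and 109 at 24 h and was not called (0.30 ± 0.12, adjusted p = 0.0896). Slc1a4, a carrier of alanine, serine and cysteine, was called at 12 h (1.21 ± 0.40, adjusted p = 0.047) and again in the 24 h libraries (1.22 ± 0.40, adjusted p = 0.033). It was scarce, at 0.837, 1.98 and 2.92 CPM in the 0 h libraries and 3.53, 6.64 and 4.67 at 24 h, and the call at 24 h was lost without any 1 of 4 libraries. The call at 12 h was lost in 7 of 12 alternatives, namely DESeq2, the fit on only the 6 libraries compared, and without any 1 of 5 libraries (adjusted p up to 0.165).

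Slc7a11, the light chain of the cystine carrier, was near the limit of detection in ProT cells at 1.25, 4.25 and 2.34 CPM in the 0 h libraries and 3.07, 1.26 and 3.82 at 24 h, and the groups overlapped (-0.02 ± 0.46, adjusted p = 0.98). The carriers of glutamine, Slc38a2 and Slc1a5, had values below 0 and were not called. Scaled by library size alone, the median of all genes moved from -0.01 to 0.17 and that of the members from 0.34 to 0.53, and 37 of 38 members lay above 0. Slc38a2 stood at 277, 253 and 243 CPM in the 0 h libraries and 227, 223 and 214 at 24 h, with no overlap (-0.22 ± 0.11, adjusted p = 0.151). Slc1a5 stood at 91.6, 87.0 and 88.6 CPM in the 0 h libraries and 79.6, 68.4 and 89.6 at 24 h (-0.17 ± 0.11, adjusted p = 0.303).

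**Figure D2:**
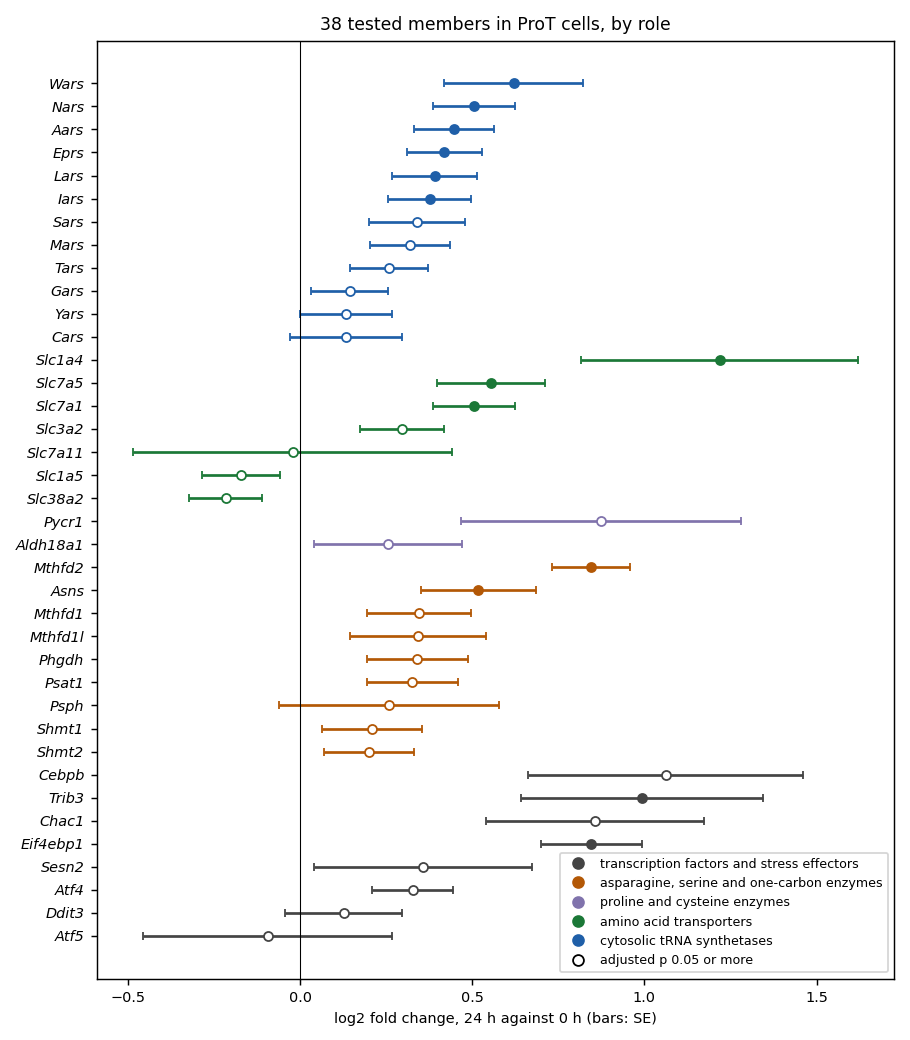
Log2 fold change at 24 h against 0 h (horizontal axis, bars are SE) for the 38 tested members, coloured by role, with filled points for members called and open points for the rest. Mthfd2 and Eif4ebp1 combine large differences with narrow bars, scarce genes such as Slc1a4 and Trib3 have wide bars, and the 4 points below 0 are open.

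The 12 member synthetases, each of which charges tRNA with 1 amino acid except for the bifunctional Eprs, gave 6 calls at 24 h, all upward, and a median of 0.36. Nars, for asparagine, stood at 135, 131 and 139 CPM in the 0 h libraries, 187, 143 and 149 in the 6 h group, and 194, 192 and 189 at 24 h. All 3 libraries at 24 h were above every library at 0 h, with a difference of 0.51 ± 0.12 (adjusted p = 0.00398). Nars was also the synthetase called at 18 h (0.37 ± 0.12, adjusted p = 0.0483), a call lost without any 1 library of 0 h or 18 h. Wars, for tryptophan, had the largest estimate of the 6, rising from 13.0, 18.7 and 15.4 CPM to 26.5, 23.5 and 22.9 (0.62 ± 0.20, adjusted p = 0.0305). Aars, for alanine, rose from 78.6, 72.0 and 96.2 CPM to 116.8, 111 and 111 (0.45 ± 0.12, adjusted p = 0.00826). Eprs, for glutamate and proline, rose from 217, 192 and 204 CPM to 268, 276 and 274 (0.42 ± 0.11, adjusted p = 0.00883). In each of these 4 the groups did not overlap. Iars, for isoleucine, and Lars, for leucine, were higher at 24 h by 0.38 ± 0.12 and 0.39 ± 0.12, with adjusted p of 0.0272 and 0.027. Iars was the synthetase called at 12 h (0.38 ± 0.12, adjusted p = 0.0379), a call lost in 5 of 12 alternatives, namely the fit on only the 6 libraries compared and without the first or the second 0 h or the second or the third 12 h library (adjusted p up to 0.158). The other 6 lay between 0.13 for Cars and Yars and 0.34 for Sars and were not called. The calls at 24 h for Eif4ebp1, Mthfd2, Slc7a1 and Nars held in every alternative fit run. Without the second 24 h library 6 members were called, without the first or the second 0 h library 7 each, and in these fits Asns, Slc7a5, Slc1a4, Iars, Lars, Wars and Trib3 were among the calls lost. Aars and Eprs were lost without the second 0 h library alone, with adjusted p of 0.0718 and 0.0546. Of the 8 members called at 24 h that had a promoter window, 5 held the C/EBP-ATF element, and of the 23 tested and not called, 6 did. Whether these shares differ was not tested, and the list was chosen for ATF4. Of the calls held in every fit, Mthfd2 and Slc7a1 had a window without a match, and Eif4ebp1 and Nars had no window. The called members with a match, Trib3, Asns, Slc1a4, Iars and Aars, each lost the call in some alternative.

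The other cytosolic synthetases, which were not in the list, gave 4 calls among 11 tested genes at 24 h, all upward: Vars (0.58), Kars (0.56), Qars (0.43) and Rars (0.42), with a list median of 0.20. Mitochondrial synthetases gave 0 higher and 1 lower of 17, the lower one being Hars2 at -0.47, with a list median of -0.08. Genes of the unfolded protein response, the endoplasmic reticulum arm of the same stress network, gave 6 calls upward of 12 at each of 12, 18 and 24 h. At 24 h they included the chaperones Calr (0.90), Hspa5 (0.76) and the chaperone-related Hyou1 (0.75). At 12 h the members had 5 calls of 38. Whether these lists differ was not tested.

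**Figure D3:**
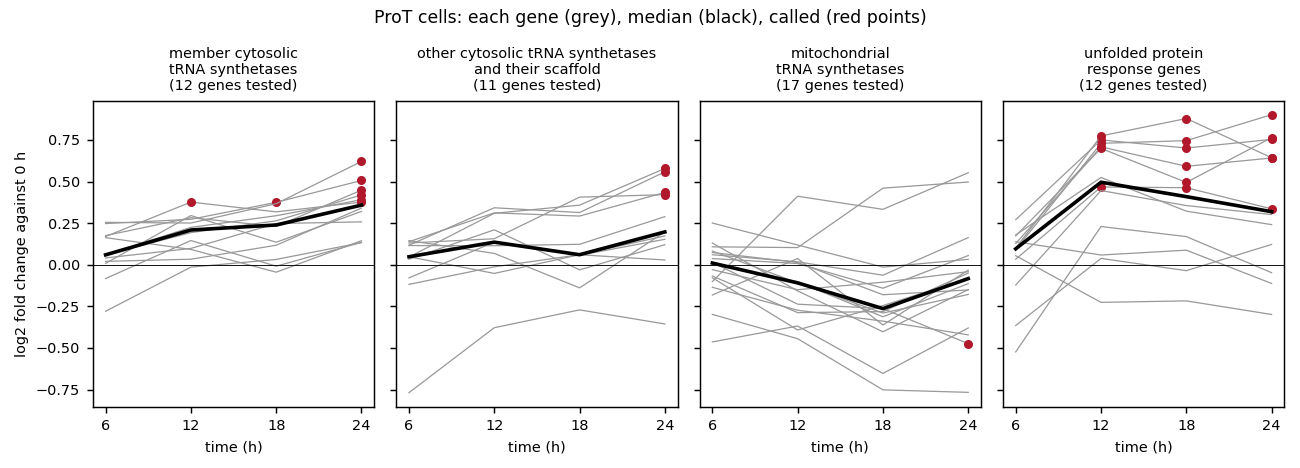
Log2 fold change against 0 h (vertical axis) at 6, 12, 18 and 24 h in ProT cells for each gene of 4 lists (grey lines), with the list median in black and called values as red points. Member synthetases reach a median of 0.36 at 24 h and mitochondrial synthetases -0.08, and the unfolded protein response genes already have 6 called genes at 12 h.

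Among upstream and parallel genes, calls at 24 h are set beside the 9.43% of all genes called upward. Of the eIF2 kinases, eIF2 subunits and their regulators, 1 of 14 rose, Eif2b5, a subunit of the exchange factor (0.48, adjusted p = 0.0223). Of 11 other ATF4 target and stress response genes tested, 1 rose, the alanine transaminase gene Gpt2 (0.82, adjusted p = 0.0282). Among 15 other folate and glycine cleavage genes, Tyms, the thymidylate synthase (0.51), and Mtr, the methionine synthase (0.70), rose. Among 12 mTORC1 and MYC regulators, Mycn (0.71) and the mTOR inhibitor Deptor (0.80) rose.

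Other markers moved with the members in the same libraries. Cell division genes were higher at 24 h in 13 of 15 cases, and their summed level went from 1247 to 1315 CPM at 0 h to 2025 to 2077 at 24 h, while the summed level of the members went from 2111 to 2269 CPM to 2680 to 2743. Of 6 tested myeloid markers, of 8 listed, 2 were called lower at 24 h, S100a8 and S100a9, and 2 had values above 0. The summed list level was 70.3 to 79.8 CPM in the 0 h libraries and 48.9 to 56.7 at 24 h. Cd14 was at 0 counts at both times. Of 3 tested dendritic markers, of 7 listed, Itgax was lower and 1 had a value above 0. Of 11 tested thymocyte markers, of 15 listed, 2 were called higher and 0 lower. The share of all counts, unassigned reads included, that fell in no gene was 21.1% to 22.2% in the 0 h libraries and 17.8% to 18.4% at 24 h, without overlap, and 19.9% in the first 6 h library against 22.1% and 22.6% in the others. Their part in the members' differences was not tested. In bulk libraries, fewer cells of a type and less RNA per cell cannot be told apart.

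Between neighbouring times, 2 members rose from 6 h to 12 h (10.9% of genes called, 5.54% upward and 5.31% downward), Eif4ebp1 (0.61 ± 0.14, adjusted p = 0.00525) and Cebpb (1.10 ± 0.34, adjusted p = 0.0335). The Cebpb call was lost in 5 of 11 alternatives, namely DESeq2, the fit on only the 6 libraries compared, and without the second or the third 6 h or the third 12 h library (adjusted p up to 0.159), and that for Eif4ebp1 without the third 6 h library (adjusted p = 0.0535). From 12 h to 18 h 0 members were called (0.0514% of genes). In that step 5.66% of all genes had an unadjusted p below 0.05, and 1 member was higher and 4 lower without overlap (5.23% and 5.54% of genes). The test over all times called 8 members, namely Mthfd2, Eif4ebp1, Slc7a1, Psat1, Cebpb, Nars, Eprs and Asns, against 18% of all genes. The first 6 h library had a summed member level of 2546 CPM where the other 6 h libraries had 2113 and 2150. Without it, 9 members were called between 6 h and 12 h and 18 over all times. Leaving it out of the fit, which shares 1 estimate of the spread, also moved the 24 h count against 0 h to 19. Why these counts moved was not tested.

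**Figure D4:**
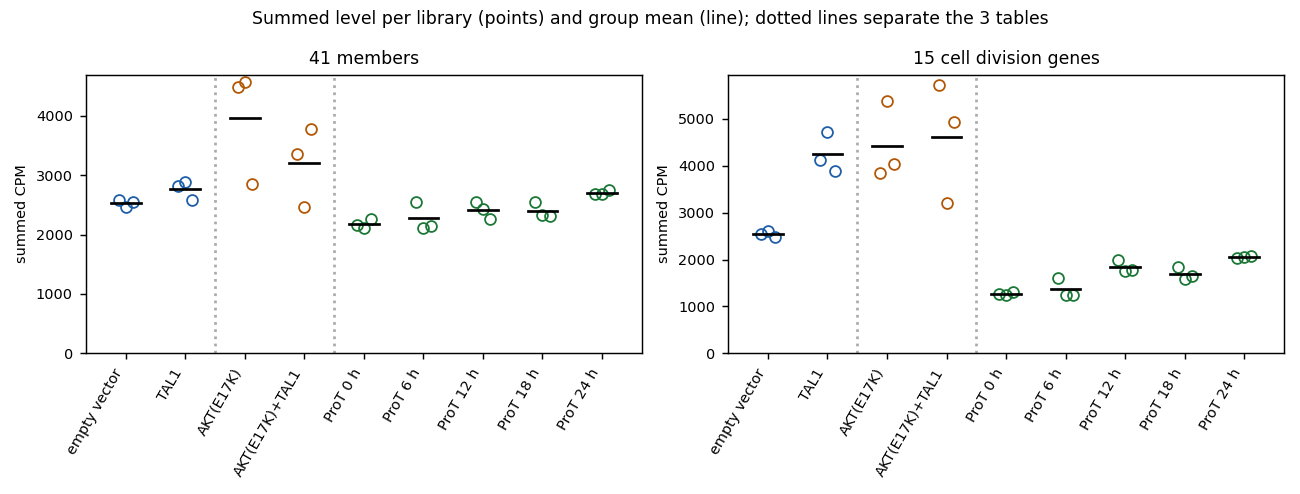
Summed level in CPM (vertical axis) of the 41 members (left) and of 15 cell division genes (right) in every library (points) with the group mean (line), for the 9 groups. ProT libraries at 24 h lie above those at 0 h in both panels, the AKT(E17K) mice spread widely in the left panel, and the dotted lines separate tables that were scaled apart.

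In thymus, libraries of mice labelled TAL1 held 7155918 to 11302098 counts in genes and those of empty-vector mice 3893990 to 5915285, without overlap. The mice labelled TAL1 differed from the empty-vector mice in 1 of 34 tested members. This was Mthfd2, at 47.7, 50.7 and 40.2 CPM in empty-vector mice and 79.1, 84.5 and 74.8 in mice labelled TAL1. The groups did not overlap, and the log2 difference was 0.78 ± 0.14 (adjusted p = 0.00573), where 5.04% of 12357 genes were called, 2.16% upward and 2.88% downward. The call held in every alternative fit run, at 0.69 to 0.85. The median over members was 0.11, and 23 of 34 lay above 0. Without TAL1 mouse M318, whose myeloid marker sum was the group's highest at 370 CPM against 9.72 at the lowest, the median was 0.01 with 18 of 34 above 0, and Mthfd2 was still called (0.73, adjusted p = 0.0309).

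Serine and one-carbon enzymes other than Mthfd2 were not called in these mice. Psat1 stood at 32.4, 26.8 and 28.8 CPM in empty-vector mice and 39.3, 44.8 and 42.6 in mice labelled TAL1, without overlap (0.52 ± 0.17, adjusted p = 0.102). Phgdh stood at 12.3, 14.4 and 9.89 CPM against 14.6, 20.8 and 14.8, also without overlap (0.46 ± 0.26, adjusted p = 0.415). Shmt2 overlapped, at 33.9, 39.9 and 23.1 CPM against 38.5, 44.4 and 34.6 (0.28 ± 0.21, adjusted p = 0.571). Aars stood at 72.2, 75.4 and 79.7 CPM against 88.8, 93.6 and 102, above without overlap and not called (0.33 ± 0.12, adjusted p = 0.15). Atf4 at 218, 174 and 203 CPM against 204, 227 and 189, and Ddit3 at 32.1, 23.7 and 33.9 against 25.7, 23.1 and 23.1, both overlapped. In all, 8 members were higher and 2 lower without overlap, where 11.7% and 11.5% of all genes were. The 2 lower ones were mitochondrial one-carbon enzymes, named after their values were seen. Mthfd1l stood at 31.1, 37.0 and 33.5 CPM in empty-vector mice and 25.3, 24.5 and 23.7 in mice labelled TAL1 (-0.46 ± 0.18, adjusted p = 0.179). Aldh1l2 stood at 1.83, 1.80 and 2.10 CPM against 0.429, 0.550 and 0.989 (-1.48 ± 0.73, adjusted p = 0.326). Slc7a11 stood at 63.7, 82.8 and 113 CPM in empty-vector mice and 75.5, 59.8 and 34.3 in mice labelled TAL1, overlapping and not called (-0.62 ± 0.26, adjusted p = 0.231). Slc7a5 also overlapped, at 9.15, 12.1 and 12.8 CPM against 11.2, 17.3 and 11.2 (0.22 ± 0.28, adjusted p = 0.764). Asns had 0 counts in the empty-vector mice and 5 in 1 mouse labelled TAL1, and neither it nor Trib3, Chac1, Slc1a4, Pycr1, Vldlr and Cth could be tested.

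Cell division genes moved beside Mthfd2 in these mice: 10 of 15 were higher, and their summed level was 2475 to 2614 CPM in empty-vector mice and 3895 to 4712 in mice labelled TAL1. The thymidylate synthase gene Tyms rose (0.82, adjusted p = 0.00461), while Eif2ak2, the eIF2 kinase that senses double-stranded RNA, fell by 1.01 on the log2 scale (adjusted p = 0.0462) and Sesn3 by 1.08 (adjusted p = 0.00687). Of 15 thymocyte markers 3 were higher, Dntt, Cd8b1 and Thy1, and Cd5 was lower, and their summed level was 12793 to 15432 CPM against 16837 to 18478. The share of counts that fell in no gene was 33% in the empty-vector mice and 29.8% to 30.3% in mice labelled TAL1. Of 7 listed stromal and endothelial markers, 1 could be tested, Pecam1, and it was lower. The sum over that list was 144 to 193 CPM against 104 to 110. In each mouse 4, 5 or 6 of the 7 were at 0 counts, so this sum adds little to Pecam1. The part of these in the Mthfd2 difference was not tested.

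With AKT(E17K), the TAL1 label was accompanied by no called member: 0 of 35 tested members and 0% of 9782 genes passed in edgeR. At an unadjusted p below 0.05, 1 member and 7.25% of all genes passed, and DESeq2 called 0 members. The median member was lower by 0.27 (-0.27), and 4 of 35 lay above 0. Among members not overlapping between the groups, 0 were higher and 3 were lower (6.18% and 5.72% of all genes), namely Slc1a4, Asns and Cars. The members of smallest p were Slc1a4 at 5.77, 5.27 and 3.6 CPM in AKT(E17K) mice and 1.41, 0.353 and 1.86 with TAL1 (-2.0 ± 0.78, adjusted p = 0.673), and Eif4ebp1 at 25.9, 14.7 and 7.97 against 8.45, 3.88 and 9.79 (-1.14 ± 0.55, adjusted p = 0.697). Iars, Phgdh and Asns followed, at -0.58 ± 0.29, -0.67 ± 0.35 and -1.53 ± 0.80. None of these passed the threshold after adjustment over all genes tested.

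The mice of the AKT(E17K) table varied more than the others, with a biological coefficient of variation over genes of 35% against 22% in the empty-vector and TAL1 table and 11.6% in ProT cells. Atf4 stood at 499, 579 and 319.4 CPM in AKT(E17K) mice m121, m122 and m124 and at 391, 250 and 444 in mice m116, m117 and m119 with TAL1. Shmt2 ran from 106 to 353 CPM and Mthfd2 from 56.1 to 194 in AKT(E17K) mice, with mouse m124 lowest for both. Slc7a11 ran from 0.257 to 67.3 CPM in the same mice, again with mouse m124 lowest. Asns stood at 21.1, 36.9 and 14.4 CPM, against 13.7, 0.353 and 10.7 with TAL1, where mouse m117 was lowest. Phgdh, Psat1 and Aars overlapped between the groups with and without TAL1. Phgdh ran from 62.7 to 132 CPM in AKT(E17K) mice and 38.5 to 76.4 with TAL1, Psat1 from 87.2 to 134 and 50.1 to 119.3, and Aars from 115.98 to 188 and 101 to 169.6. Without mouse m121 the median over members was -0.14 with 13 of 35 above 0, and without mouse m124 it was -0.52 with 2 of 35 above 0. Markers of other cells also spread here: the stromal and endothelial sum ran from 34.8 to 503 CPM and the myeloid sum from 74.8 to 777 CPM in AKT(E17K) mice, and from 71.8 to 150.0 and 73.2 to 331 with TAL1. All 7 stromal and endothelial markers were detected in AKT(E17K) mice, and Cdh5 and Kdr were at 0 counts with TAL1. Their part in the members' values was not tested.

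Whether the TAL1 label had another effect beside AKT(E17K) than alone was tested over the 12 mice, and 0 of 36 members passed in edgeR (0.164% of 10947 genes). At an unadjusted p below 0.05, 10.9% of all genes passed. The median member was -0.44, with 5 of 36 above 0. Phgdh had the smallest p (-1.10 ± 0.44, adjusted p = 0.383). Mthfd2, called without AKT(E17K) and not with it, gave -0.91 ± 0.47 (adjusted p = 0.503). It was called lower in this comparison only when AKT(E17K) mouse m124 was left out.

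**Figure D5:**
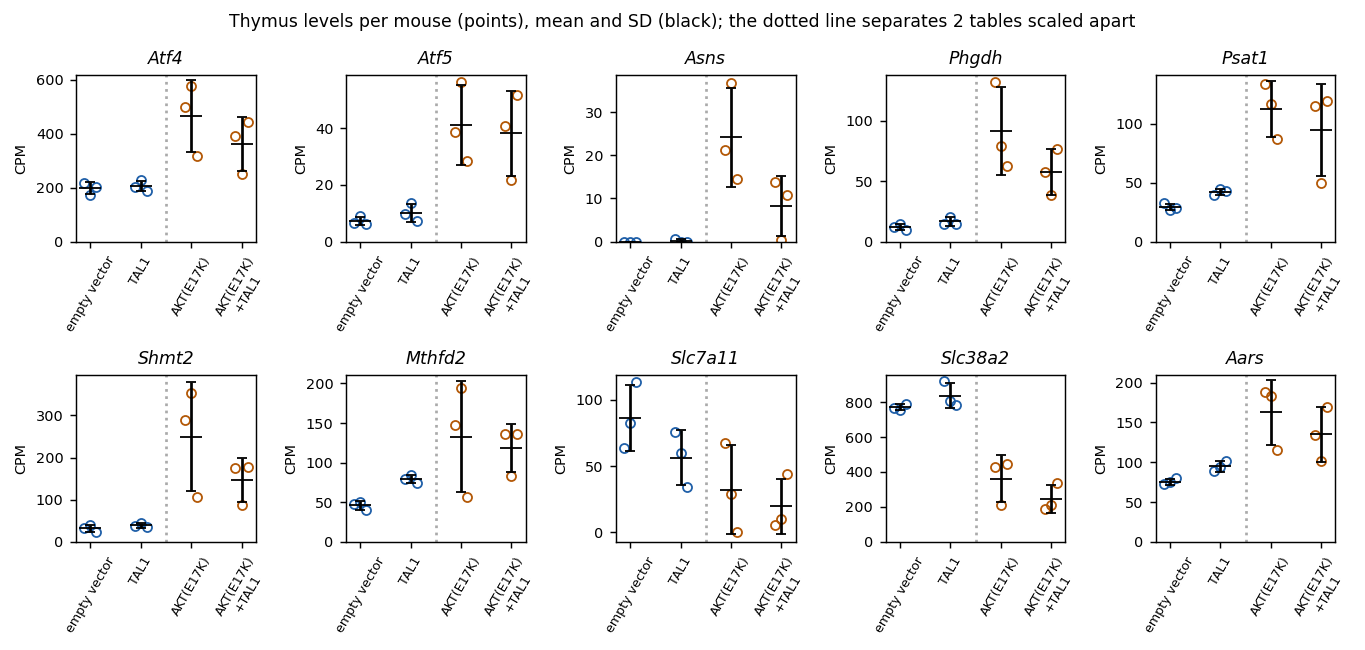
Level in CPM (vertical axis) of 10 members in each mouse (points) with mean and SD (black) in the 4 thymus groups. Mthfd2 separates the TAL1 from the empty-vector mice, the AKT(E17K) groups overlap in most panels, and the dotted line separates tables that were scaled apart, so levels across it are not tested.

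Levels were also set side by side across the mouse tables, which were scaled separately and not tested against each other. Several members had other levels in the AKT(E17K) groups. Shmt2 averaged 32.3 CPM in empty-vector mice and 39.2 in mice labelled TAL1, and 249.9 ± 129 in AKT(E17K) mice and 147 ± 51.4 with TAL1. Phgdh averaged 12.2 and 16.7 CPM in the first table and 91.2 and 57.4 in the second, and Atf5 7.27 and 10.1 against 41.1 and 38.2. Every AKT(E17K) mouse, with or without TAL1, was above every mouse of the other table in these 3 genes. The share of all genes that separated the tables in this way was not computed, so this is not a result particular to these members. Slc38a2 had the other order, at 770.5 ± 16.7 and 837 ± 71.0 CPM against 363 ± 132 and 245 ± 81.2. Marker sums differed across these tables too. The erythroid sum was 126 to 939 CPM in AKT(E17K) mice and 85.3 to 455 with TAL1. It was 0 to 15.8 CPM in empty-vector mice and 6.00 to 22.5 in mice labelled TAL1. The thymocyte sum was 7138 to 8733 and 7020 to 9825 CPM in the AKT(E17K) groups, against 12793 to 15432 and 16837 to 18478. The table, the mice, their cell content and AKT(E17K) cannot be told apart in these values.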

How the data were processed

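Whole-number counts per gene, not normalized, were deposited in 3 tables, for 27 libraries. Per the submitters' processing notes the tools were FastQC, HISAT2, SAMtools and HTSeq on mm10 (GRCm38), and the sources used here do not give versions, annotation release or strand setting. Counts were tested with edgeR 4.0.16 in R 4.3.3 (TMM, filterByExpr, quasi-likelihood F test), and p-values were adjusted by Benjamini-Hochberg over all genes tested, with a threshold of 0.05. Each mouse comparison was fitted within its table, the 15 ProT libraries together, and the difference of TAL1 effects over 12 mice on 22729 shared symbols. The filter left 34, 35, 38 and 36 members. CPM are counts over the filtered total times the TMM factor, and SE is the absolute log2 difference over the square root of F. Members per kilobase used exon lengths of GENCODE M21, and 27 symbols turned into dates were restored in each of 2 tables. Scripts were tested on simulated data. Of simulated 2-fold changes, 47 of 66 were recovered in ProT cells at 24 h and 34 of 66 in mice labelled TAL1. With AKT(E17K) 4 of 65 were recovered, and for the difference of TAL1 effects 2 of 64. The absence of called members in the last 2 comparisons therefore does not exclude changes of that size.

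The 41 members, the other lists and the tests were chosen with earlier results of these data known. The text names the called members by role, and in the AKT(E17K) comparison, where none passed, the 5 of smallest p. For the other comparisons without a call those 5 are not given. A fixed set of 12 members was also planned for the ProT and mouse comparisons, and not every value of these is printed. No pair of libraries agreed within sampling noise. Alternatives were scaling by library size, DESeq2 1.42.0, no filter, each library left out, only the 6 libraries compared, and a replicate block.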

Additional observations from a re-analysis of the deposited data

How the results depend on the processing

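The number of members called in ProT cells moved with the scaling and with which libraries set the spread. Scaled by library size alone, which put the median of all genes at 0.18 at 12 h, 0.13 at 18 h and 0.17 at 24 h where it had been -0.01 at each, 12, 5 and 23 members were called against 0 h, 0 between 18 h and 24 h, and 15 over all times. Fitted on only the 6 libraries of the times compared, 3 were called at 12 h, 5 at 18 h, 24 at 24 h, 1 from 6 h to 12 h and 5 from 18 h to 24 h. DESeq2 called 1 from 6 h to 12 h. Without the filter on low counts 2 members were called in mice labelled TAL1, Mthfd2 higher and Slc7a11 lower. With the replicate number as a block 5 members were called at 12 h, 2 at 18 h and 13 at 24 h, where Atf4 was gained and Trib3 lost, and the other counts were the same. Libraries with the same number did not deviate together (correlations -0.143 to 0.213 over 30 pairs, 4 of 15 libraries closest to their own number), and the mice share no numbers. With single libraries left out, the ranges were 2 to 8 members at 12 h, 0 to 1 at 18 h (3 without the first 6 h library), 6 to 11 at 24 h (19 without that library), 0 to 9 between 6 h and 12 h, 0 to 1 between 18 h and 24 h, 3 to 18 over all times and 0 to 1 for the difference of TAL1 effects. Leaving the first 6 h library out of the shared fit was an alternative chosen after seeing the data. The counts in the AKT(E17K) comparison and at 6 h stayed at 0, and that in mice labelled TAL1 at 1, with any library left out. Among members not called, Slc7a11 at 24 h turned to 0.16 by library size, 0.014 with DESeq2 and 0.00078 without the filter, and ranged from -0.31 to 0.45 with single libraries left out. In mice labelled TAL1 the same ranges were -0.025 to 0.13 for Atf4 and -0.020 to 0.32 for Slc7a5. In the AKT(E17K) comparison they were -0.27 to 0.0015 for Ddit3, -0.45 to 0.064 for Psat1, -0.52 to 0.23 for Mthfd2, -0.71 to 0.43 for Slc7a5 and -2.04 to 0.50 for Slc7a11. The cause of these changes was not tested. Where an arm was left with fewer libraries the spread was pooled over the groups of the fit.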
